A study of Mus musculus with 4 samples.

Results

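The genes described here make up the p53 and RB pathways, which hold back the mammalian cell cycle, together with the genes that drive the cycle against them. They comprise p53 (Trp53) and its inhibitors, the inhibitors of the cyclin-dependent kinases, the RB family with the E2F factors it binds, the cyclins and kinases that act on RB, and genes of arrest, stress and cell death, many of them p53 targets. Members were taken by gene name from a list of 40 genes, and all 40 were on the array, with 76 of its 56605 probes. The array's probes carry 37074 names in all. Levels and differences were measured in GC-1 cells, a mouse line of spermatogonial origin.

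Cells of the Hdac6 vector group (2 arrays) were transfected with a pCMV plasmid that carries murine Hdac6, a cytoplasmic deacetylase, behind a CMV promoter and with a myc/DDK tag. Cells of the empty vector group (2 arrays) received the vector without it. Both groups were grown in the same medium, which was renewed at 24 h, and harvested at 48 h. All 4 arrays thus show transfected cells of a single line, and no untransfected cells were analysed here. Whether the 2 arrays of a group stem from different cultures is not in the labels. The p-values therefore rest on the spread between these arrays alone, and that spread may be technical.

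As background, p53 is a transcription factor that is kept low by Mdm2 and Mdm4 and that accumulates after DNA damage, when it induces genes of arrest and of cell death, among them Cdkn1a. RB and its relatives p107 and p130, the pocket proteins, bind E2F factors and hold back genes of S phase until cyclin-dependent kinases phosphorylate them. GC-1 was immortalized with the SV40 large T antigen, a viral protein that binds both p53 and the pocket proteins.

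Levels are log2 processed signals relative to the array's 75th percentile, so that a level of 0 is the signal that 75% of probes do not exceed. Since a probe's brightness also depends on its sequence, differences are taken only between arrays and for the same probe. The side of the 75th percentile on which a probe lies is given as a description and says nothing of one gene against another. The 75th percentile itself was 815 and 452.6 intensity units on the Hdac6 vector arrays, and 666 and 693 on the empty vector arrays. Of the spots, 64.3% and 61.0% were well above background with the Hdac6 vector, and 66.4% and 65.1% with the empty vector. Hdac6 vector 1 and empty vector 2 were the closest pair of arrays across groups and within them, with 0.604% of probes at least 2-fold apart, against 3.82% to 6.85% for the other 5 pairs. The targeted gene, Hdac6, had 2.62 and 3.24 in Hdac6 vector cells and 3.31 and 2.83 in empty vector cells, which overlap (0.909-fold, 95% interval 0.578 to 1.43, limma adjusted p = 1.00). Whether this probe also reads the vector's transcript is not known. The Hdac6 level and the closest pair of arrays, which holds 1 array of each group, thus give no check of the labels. They were taken as given, and every comparison here depends on them. Of 14 spermatogonia markers, 9 were well above background on all 4 arrays and 2, Kit and Dazl, on none. The same was true of 7 of 10 Sertoli cell markers (Amh and Cldn11 on none), 2 of 7 Leydig cell markers, 6 of which had a probe (Lhcgr and Hsd17b3 on none), 9 of 10 peritubular and fibroblast markers (Thy1 on none) and 5 of 8 macrophage markers (Adgre1 and Cd163 on none). None of these markers changed (0 in each list). In such bulk samples, fewer cells that express a gene and less RNA per cell cannot be told apart.

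All 40 members were well above background on all 4 arrays by their brightest probe. Of them, 33 (82.5%) lay above the 75th percentile on all 4 arrays, where 45.3% of all genes tested did so. E2f4, Rbl2, E2f3 and Mdm4 lay below it on all 4, and Trp53, Zmat3 and Cdk2 lay on both sides. No member changed with the Hdac6 vector (0 of 40, limma adjusted p of 1.00 for each). Over all 23496 genes tested, 2 passed, which is 0.00851%, and over all 35214 probes 4 passed, which is 0.0114%. No member (0 of 40) reached an unadjusted p under 0.05 either, where 1.84% of all genes did.

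The direction of the members was mixed. The log2 difference, Hdac6 vector minus empty vector, was above 0 for 17 members and below 0 for 23, with a median of -0.13 against 0.0041 for all genes tested. In 31 members the groups overlapped. Both Hdac6 vector arrays lay above both empty vector arrays in 1 member (2.5%), where 12.3% of all genes did so. Both lay below in 8 members (20%), where 12.9% of all genes did so. Folds ran from 0.741 for E2f4 to 1.20 for Cdk2. With 2 arrays per group the typical 95% interval reached 1.51-fold to either side of its fold, as the median over members. For 37 members the interval left out both a 2-fold rise and a 2-fold fall, the exceptions being Trp53, E2f4 and Gadd45g.

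**Figure D1:**
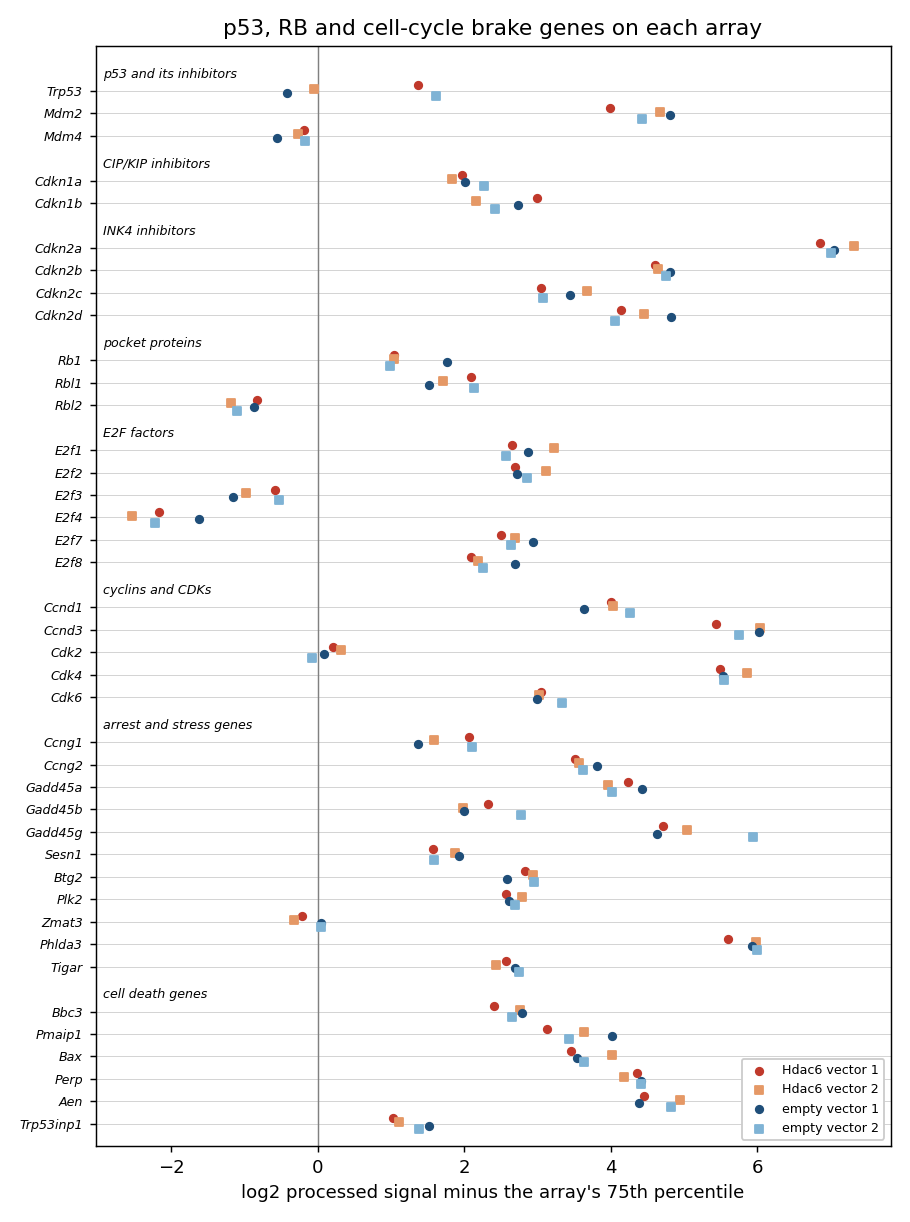
Level of each of the 40 members on each array, in log2 units above or below that array's 75th percentile (vertical line at 0), by role and with the 2 Hdac6 vector arrays marked apart from the 2 empty vector arrays. The values of Trp53 span 2.04 and those of Gadd45g, with empty vector 2 at 5.95, span 1.31, the widest spans of the 40.

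Trp53, which encodes p53, had the widest spread of all members. It had 1.37 and -0.057 in Hdac6 vector cells, and -0.43 and 1.61 in empty vector cells. Each group thus held a high and a low array, and the high pair was Hdac6 vector 1 and empty vector 2. The group means differed by 1.05-fold (95% interval 0.390 to 2.81), an interval that holds both a 2-fold rise and a 2-fold fall of the p53 transcript. A range of 2.04 or more over the 4 arrays was found in 1.22% of genes tested, whose median range was 0.57, while that of the members was 0.48. The direction rested on single arrays, with a log2 difference between -0.95 and 1.08 when 1 array was left out, the lower being the value without empty vector 1 and the higher that without empty vector 2.

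The array has 1 Trp53 probe, which lies in the coding sequence rather than at the transcript's 3′ end (chromosome 11, 69403134 to 69403193, mm9, plus strand). Cdk4, the kinase gene that starts RB phosphorylation with D cyclins, has a probe of the same kind (chromosome 10, 126503162 to 126503221, mm9, plus strand) beside 3 that lie farther downstream, and both probe sequences are shown because they gave the same split of arrays. The Cdk4 probe was chosen after its values were seen.
Trp53 probe: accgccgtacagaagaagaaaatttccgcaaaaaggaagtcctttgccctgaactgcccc
Cdk4 probe: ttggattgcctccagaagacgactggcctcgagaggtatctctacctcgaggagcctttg
The Cdk4 coding probe had 3.68 and 3.08 in Hdac6 vector cells and 2.69 and 3.34 in empty vector cells, with Hdac6 vector 1 and empty vector 2 high. The brightest, downstream Cdk4 probe had 5.49 and 5.87 in Hdac6 vector cells and 5.53 and 5.55 in empty vector cells. It did not show that split and overlapped between groups (log2 difference 0.14, 95% interval of the fold 0.745 to 1.62). The brightest probes of Ccng1, Rbl1, Gadd45b, Mdm4, E2f3 and Cdk6 also had Hdac6 vector 1 and empty vector 2 high. The same arrays were the low pair in Mdm2, Cdkn2a, Cdkn2c, Cdkn2d, Rb1, E2f1, E2f7, Ccnd3, Bbc3, Pmaip1 and Sesn1. They were also the closest pair over all probes, and the share of all genes with either split was not counted. The part of probe position in this split was not tested.

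Mdm2, the ubiquitin ligase that marks p53 for degradation and is itself a p53 target, had 3.99 and 4.67 in Hdac6 vector cells and 4.81 and 4.43 in empty vector cells. The groups overlapped, at 0.817-fold (95% interval 0.518 to 1.29). Its other tested probe spans an intron and gave 0.787-fold. Mdm4, which binds p53 and blocks its activity, had -0.19 and -0.28 in Hdac6 vector cells and -0.56 and -0.17 in empty vector cells, at 1.09-fold (0.718 to 1.67). Its 5 tested probes lay between log2 differences of -0.055 and 0.21.

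Cdkn1a encodes p21, the CDK inhibitor that carries out the p53 arrest. It had 1.97 and 1.83 in Hdac6 vector cells and 2.02 and 2.27 in empty vector cells. Both Hdac6 vector values were below both empty vector values, but by less than the spread allows to call (0.845-fold, 95% interval 0.584 to 1.22). Its 2 other probes lie upstream on chromosome 17 and were not tested, being well above background on 0 and 2 arrays. Cdkn1b encodes p27, an inhibitor that accumulates in resting cells. It had 2.99 and 2.16 in Hdac6 vector cells and 2.73 and 2.41 in empty vector cells, a fold of 1.00 (0.620 to 1.61), with Hdac6 vector 1 the highest and Hdac6 vector 2 the lowest of the 4.

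The Cdkn1a promoter is shown because, of the 33 members with a promoter in the RefSeq table (GRCm38.p6, 44 windows of 300 bases), it alone held a full p53 response element. That motif was searched as 2 p53 half-sites without mismatch and with at most 13 bases between them, on both strands. Of all 32851 promoters, 24 (0.0731%) held it. Elements outside the window or with a mismatch were not searched. The 250 bases before one of the gene's starts (chr17:29090729-29090978, plus strand) are given with the half-sites of 10 bases in capitals.
Cdkn1a promoter: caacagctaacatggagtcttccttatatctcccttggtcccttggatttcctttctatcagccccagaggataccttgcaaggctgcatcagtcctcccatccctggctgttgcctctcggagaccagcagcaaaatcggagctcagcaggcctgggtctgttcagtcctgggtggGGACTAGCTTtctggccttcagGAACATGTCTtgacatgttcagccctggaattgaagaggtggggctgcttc
The half-sites span positions -73 to -42 relative to that start and are 12 bases apart. The 10 bases directly after the second, tgacatgttc, miss the half-site letters at their first base only and are not marked. A single half-site was found in 10 of the 44 member promoters (22.7%) and in 8.36% of all promoters. They belong to 9 members (Aen, Bax, Ccng1, Cdkn1a, Cdkn2d, Gadd45a, Mdm2, Sesn1 and Trp53). These matches describe the letters in the window and not binding, and the capitals need not be the stretch that p53 uses.

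The INK4 genes encode inhibitors of Cdk4 and Cdk6 and act through RB. Cdkn2a, the locus of p16 and of the p53 activator ARF, had 6.86 and 7.33 in Hdac6 vector cells and 7.05 and 7.01 in empty vector cells. The groups overlapped, at 1.04-fold (95% interval 0.686 to 1.59), and its other probe gave 1.03-fold. Both Cdkn2a probes are annotated to the same transcript, and p16 and ARF cannot be told apart with them. Its neighbour Cdkn2b, which encodes p15, had 4.61 and 4.65 in Hdac6 vector cells and 4.81 and 4.76 in empty vector cells. That difference was small but without overlap (0.899-fold, 0.630 to 1.28), and the second Cdkn2b probe, at 0.967-fold, did overlap. Cdkn2c (p18) and Cdkn2d (p19) overlapped between groups, at 1.07-fold and 0.906-fold.

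Among the pocket protein genes the groups overlapped in all 3. Rb1 had 1.04 and 1.05 in Hdac6 vector cells and 1.76 and 0.98 in empty vector cells. Only empty vector 1 stood apart, and without it the log2 difference of -0.33 became 0.060. Rbl1, which encodes p107, had 2.10 and 1.71 in Hdac6 vector cells and 1.52 and 2.14 in empty vector cells by its brightest probe, at 1.05-fold. A second Rbl1 probe, farther upstream (chromosome 2, 157000761 to 157000820, mm9, minus strand), had 1.02 and 1.83 in Hdac6 vector cells and 2.07 and 1.25 in empty vector cells. Hdac6 vector 1 and empty vector 2 were thus the high pair on one probe of this gene and the low pair on the other. Rbl2, which encodes p130, stood at 0.985-fold (0.632 to 1.53).

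The E2F factors comprise activators (E2f1, E2f2, E2f3) and repressors (E2f4 with pocket proteins, and E2f7 and E2f8 without them). E2f1 had 2.65 and 3.23 in Hdac6 vector cells and 2.87 and 2.57 in empty vector cells, at 1.16-fold (95% interval 0.762 to 1.78). E2f2 and E2f3 stood at 1.09-fold and 1.04-fold, and all 3 activators overlapped between groups. E2f4 had the lowest fold of all members, with -2.17 and -2.54 in Hdac6 vector cells and -1.63 and -2.22 in empty vector cells. Hdac6 vector 1 lay just above empty vector 2, so the groups overlapped, and the interval reached to both sides of no change (0.741-fold, 0.441 to 1.25). E2f7 stood at 0.878-fold.

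E2f8 gave opposite directions by probe. Its brightest probe had 2.09 and 2.19 in Hdac6 vector cells and 2.69 and 2.25 in empty vector cells, lower without overlap (0.795-fold, 95% interval 0.538 to 1.17). A dim probe upstream (chromosome 7, 56134203 to 56134262, mm9, minus strand) had -4.12 and -4.65 in Hdac6 vector cells and -5.51 and -4.93 in empty vector cells. There the Hdac6 vector arrays were higher without overlap (1.78-fold, 0.980 to 3.24, limma unadjusted p = 0.0567, adjusted p = 1.00). The 2 E2f8 probes are annotated to different transcripts.

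Because E2F genes are often under E2F control, the E2F sites in member promoters are shown, with the site in capitals. The letters TTTCCCGC or TTTGGCGC, on either strand, were found in 5 of the 44 member promoters (11.4%) and in 1.56% of all promoters. These belong to 5 of the 33 members with a promoter entry.
E2f2 (chr4:136172303-136172323, plus strand): cggcatatagTTTGGCGCtaa
E2f3 (chr13:29986057-29986084, minus strand): tgaaaagccgGCGGGAAAtctgagtttc
E2f7 (chr10:110745231-110745258, plus strand): ccgcgtccccGCGGGAAAcgctcccgcg
Cdkn2a (chr4:89294701-89294728, minus strand): tctgggaagcTTTCCCGCgcgactgggg
Cdk2 (chr10:128705174-128705201, minus strand): accaggaactGCGGGAAAgttgtgcagc
All 5 are RefSeq sequences of GRCm38.p6. Of these genes, Cdk2 was higher without overlap between groups and the other 4 overlapped. The letters TTTGAA, the core of the cell cycle homology region that DREAM complexes bind, were in 7 of the 44 member promoters (15.9%). They were in 17.9% of all promoters. Rb1, E2f4, Ccnd1, Pmaip1, Perp, Zmat3 and Trp53inp1 had no match in the promoter table.

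Cyclins and kinases that inactivate the pocket proteins were present on every array. Cdk2, the partner of E and A cyclins, had 0.21 and 0.31 in Hdac6 vector cells and 0.086 and -0.084 in empty vector cells. By brightest probe it was the only member whose Hdac6 vector values both lay above the empty vector values, by 1.20-fold (95% interval 0.809 to 1.77). Other probes of Cdk4, Ccnd3, Bax, E2f8 and Gadd45a were also higher without overlap, that of Cdk4 at 1.13-fold (0.781 to 1.62). Over all tested member probes, 8 were lower without overlap. Ccnd1, which encodes cyclin D1, overlapped at 1.05-fold (0.688 to 1.60), and Cdk6 overlapped at 0.915-fold (0.631 to 1.33).

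Ccnd3, which encodes cyclin D3, held the one member probe with an unadjusted p under 0.05 (1 of 71 tested, where 646 of all 35214 probes, or 1.83%, had one). This probe lies upstream of the others on chromosome 17 (47732637 to 47732696, mm9, plus strand) and is annotated to a different transcript. It had 0.63 and 1.05 in Hdac6 vector cells and -0.34 and -0.15 in empty vector cells. The Hdac6 vector arrays were both higher, by 2.13-fold (95% interval 1.40 to 3.23, limma unadjusted p = 0.00260), but the adjusted p over all probes was 1.00. The brightest Ccnd3 probe had 5.44 and 6.04 in Hdac6 vector cells and 6.02 and 5.75 in empty vector cells, overlapping at 0.904-fold (0.583 to 1.40). A probe that overlaps it gave 0.894-fold. The cyclin D3 signal at the 3′ end thus did not follow that of the upstream probe.

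**Figure D2:**
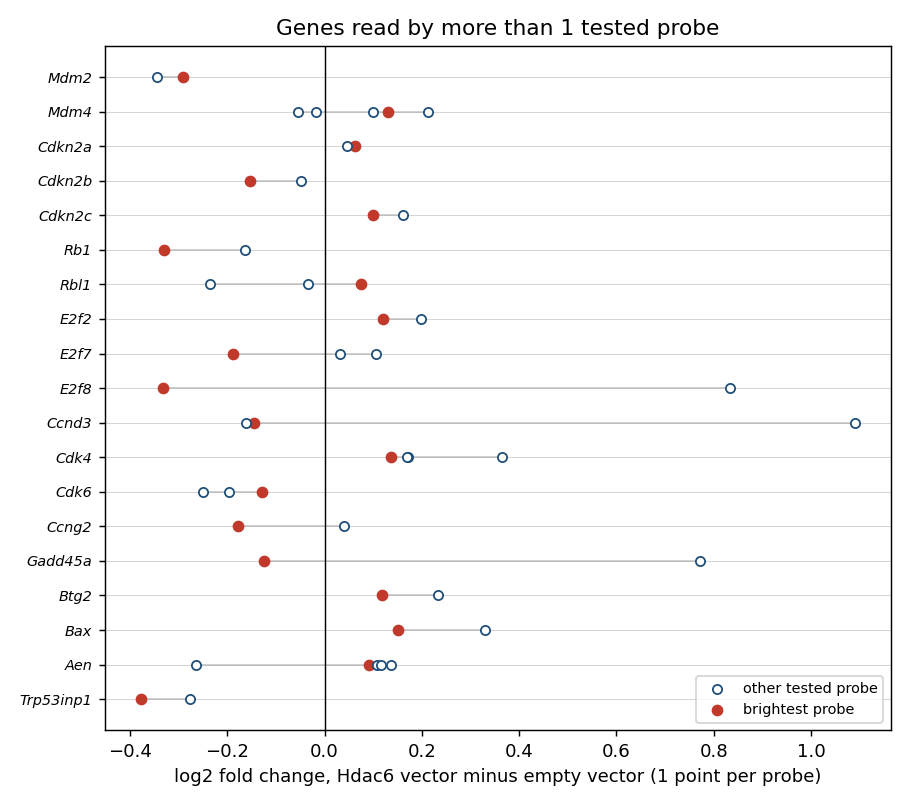
Log2 difference, Hdac6 vector minus empty vector, as a point for every tested probe of the members that have several. The line of a gene joins its lowest and highest probe and is not an interval. Probes of a gene mostly lie near 0 and near each other, while single probes of Ccnd3 (1.09), E2f8 (0.83) and Gadd45a (0.77) lie well above the brightest probe of the same gene.

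Of the 19 members with several tested probes, 11 had the same sign of the log2 difference by every probe and 8 did not. Many of these differences were close to 0, such as those of Mdm4. Over the 71 tested member probes, 6 were higher and 8 lower without overlap, where 13.1% and 11.9% of all probes were. None passed (0 at limma adjusted p under 0.05).

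Genes of growth arrest and stress, some of which p53 induces, numbered 11. Gadd45a, Gadd45b and Gadd45g encode small stress sensors that bind p21 and CDK1. Gadd45g had 4.71 and 5.04 in Hdac6 vector cells and 4.63 and 5.95 in empty vector cells. Its fold of 0.751 (95% interval 0.407 to 1.39) rested on the high empty vector 2 array, without which the log2 difference was 0.24. Gadd45a overlapped by its brightest probe (0.917-fold), and a dim probe annotated to another transcript was higher without overlap (1.71-fold, 0.969 to 3.01, limma unadjusted p = 0.0616). Gadd45b overlapped at 0.848-fold.

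Zmat3, which encodes an RNA-binding protein, had -0.22 and -0.33 in Hdac6 vector cells and 0.044 and 0.039 in empty vector cells. Within each group the arrays lay close together, and the Hdac6 vector values were lower (0.802-fold, 95% interval 0.542 to 1.19). Tigar, a fructose bisphosphatase that lowers glycolysis, had 2.57 and 2.44 in Hdac6 vector cells and 2.70 and 2.74 in empty vector cells, also lower without overlap (0.860-fold, 0.603 to 1.23). Ccng2, which encodes the cyclin G2 of arrested cells, had 3.51 and 3.57 in Hdac6 vector cells and 3.81 and 3.62 in empty vector cells. It too was lower without overlap (0.884-fold, 0.618 to 1.26). None of these 3 passed the test.

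Ccng1, whose cyclin G1 product recruits a phosphatase to Mdm2, had 2.07 and 1.58 in Hdac6 vector cells and 1.36 and 2.10 in empty vector cells. It showed the split of Trp53, with Hdac6 vector 1 and empty vector 2 high, and a fold of 1.07. Sesn1 (0.977-fold), the antiproliferative gene Btg2 (1.09-fold), the polo-like kinase gene Plk2 (1.02-fold) and Phlda3, an AKT inhibitor gene (0.889-fold), overlapped between groups.

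In the 6 genes of cell death, Trp53inp1 had the lowest unadjusted p of all members. This gene, whose product promotes p53-driven death and autophagy, had 1.03 and 1.11 in Hdac6 vector cells and 1.52 and 1.38 in empty vector cells. The Hdac6 vector arrays were lower without overlap, by 0.769-fold (95% interval 0.533 to 1.11, limma unadjusted p = 0.142, adjusted p = 1.00). Perp, which encodes a membrane protein of desmosomes and of p53-driven death, had 4.36 and 4.18 in Hdac6 vector cells and 4.42 and 4.42 in empty vector cells, lower at 0.899-fold (0.628 to 1.29).

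Pmaip1 and Bbc3 encode the BH3-only proteins Noxa and Puma, which release the pore-forming protein Bax. Pmaip1 had 3.13 and 3.64 in Hdac6 vector cells and 4.01 and 3.43 in empty vector cells, overlapping at 0.793-fold (95% interval 0.505 to 1.25). Bbc3 overlapped at 0.910-fold. Bax had 3.46 and 4.01 in Hdac6 vector cells and 3.54 and 3.63 in empty vector cells, an overlap at 1.11-fold (0.740 to 1.66). A Bax probe that spans an intron was higher without overlap, at 1.26-fold (0.845 to 1.87). Aen, an apoptosis-enhancing nuclease gene, stood at 1.07-fold.

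**Figure D3:**
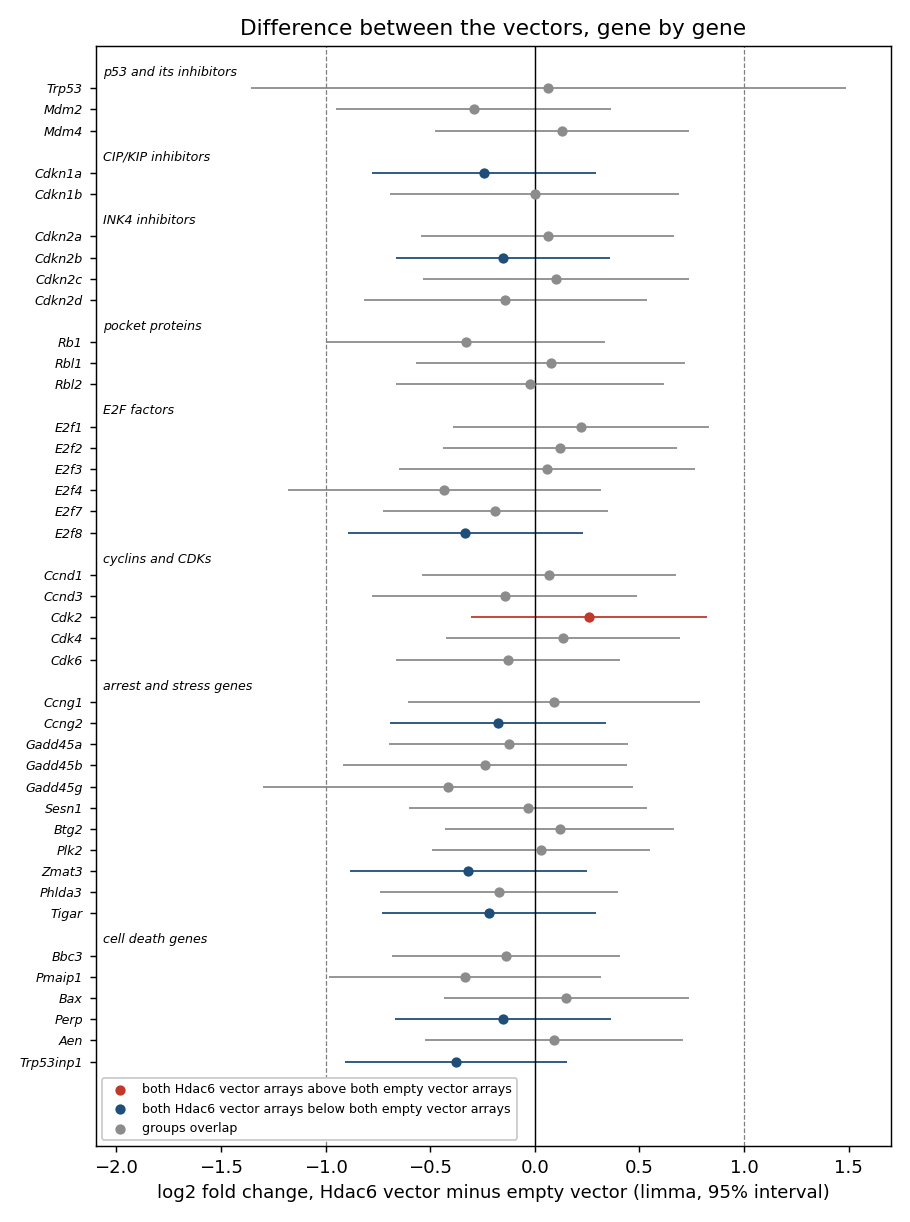
Log2 difference, Hdac6 vector minus empty vector, of each member by its brightest probe, with its 95% interval and grouped by role, where colour marks members without overlap between groups and dashed lines a 2-fold change. Every interval includes 0, and the interval of Trp53 (-1.36 to 1.49) is the widest.

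The surrounding pathway genes were read from 5 further lists, in none of which a gene changed (0 in each). Their counts of genes without overlap are to be read beside the shares over all genes, 12.3% higher and 12.9% lower. Some genes stand in several lists, such as Ccnd2, Cdc25a and Mybl2, so the counts of the lists are not separate. Of 25 p53 activators and partners, 1 was higher and 0 were lower without overlap, with a median log2 difference of -0.051. The 1 was Hipk2, a kinase of p53, at 1.20-fold (95% interval 0.824 to 1.73). Of 38 other p53 targets tested, 4 were higher and 7 lower (median -0.024). Ercc5, a DNA repair nuclease gene, was the highest of those without overlap, at 1.64-fold (0.925 to 2.90). A limma unadjusted p under 0.05 was reached by 2 of these 38 targets, where 1.84% of all genes reached one. In each of the other pathway lists 0 genes did.

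Of 23 other CDK inhibitors, cyclins and CDKs, 2 were higher and 5 lower without overlap (median -0.084), from Wee1, the kinase gene that restrains CDK1, at 0.736-fold (95% interval 0.513 to 1.06) to Cdk7, the CDK-activating kinase gene, at 1.20-fold. Of 14 other E2F and DREAM components, 1 was higher and 4 lower (median -0.17), with E2f5 at 0.803-fold (0.499 to 1.29) and the histone-binding gene Rbbp4 at 1.25-fold (0.850 to 1.83). Of 41 E2F target genes, 2 were higher and 3 lower (median -0.012). The CDK phosphatase gene Cdc25a was the lowest of those without overlap, at 0.869-fold.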

How the data were processed

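Per the file headers, the deposited scanner files hold spot intensity values from Agilent Feature Extraction 11.5.1.1 (protocol GE1_1105_Oct12), background-subtracted and not normalized between arrays, with probe positions on mm9. The authors' deposited value table holds log2 values, 1 row per gene name (37060). Its columns differed from the log2 processed signal by a constant, within 0.01, for 99.79% to 99.92% of rows with 1 probe, so its centring differs by array, and column medians were -3.71 and -3.68 for the Hdac6 vector and -3.78 and -3.67 for the empty vector. The steps behind it are not given in the sources used here. The files place all arrays on 1 slide and in 1 scan day.

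From these, log2 processed intensity was averaged over the spots of a probe without outlier flags, and each array's 75th percentile over 56605 non-control probes was subtracted. No member spot was flagged (0) and no spot was saturated (0). A probe was tested if well above background on both arrays of at least 1 group (35214 probes, 23496 genes), and a gene was read from its brightest tested probe. limma 3.58.1 in R 4.3.3 (lmFit, eBayes with trend) compared the groups in two-sided tests. P-values were adjusted over every tested probe by the Benjamini-Hochberg method, and a gene is called changed at an adjusted p under 0.05. The number of arrays, 2 per group, limits the precision. Intervals are 95%. The steps were tested on simulated data, with noise independent between arrays and planted differences larger than that of any member by its brightest probe. That test does not show whether differences of the size seen in the members would be found.

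The members, lists and tests were chosen with earlier results of these data known. Every member is named, and of each further list the genes with the highest and lowest difference among those without overlap, except for results that are not reported here. Same-numbered arrays did not deviate together (correlation of deviations -0.356 over 35205 probes), so the numbers were not taken as pairs. Alternatives were normexp, quantile and median scaling, no filter, no trend, the value table, the mean of a gene's probes, replicate blocks and leaving out each array.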

Additional observations from a re-analysis of the deposited data

How the results depend on the processing

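No member changed under any of the alternatives (0 of 40 in each), and the members' median log2 difference stayed between -0.22 and -0.020. The median of all probes was 0.019 and became -0.072 with median scaling and 0.11 with no filter. Over all probes 4 changed, against 29 with normexp, 2 with quantile normalization, 0 with median scaling (limma, 726 at an unadjusted p under 0.05), 2 with no trend and 0 to 302 with an array left out. The value table, fitted on 23464 gene rows and not on probes, gave 19. The count of probes was 0 without Hdac6 vector 1 (1421 at an unadjusted p under 0.05) or Hdac6 vector 2 (654), 12 without empty vector 1 and 302 without empty vector 2. Members at an unadjusted p under 0.05 numbered 0 to 2 with an array left out, 2 without empty vector 1 and 2 without empty vector 2. Members higher without overlap numbered 2 with quantile normalization, 2 in the value table, 4 by the mean of a gene's probes and 3 to 11 with an array left out (10 without Hdac6 vector 1, 3 without Hdac6 vector 2, 4 without empty vector 1 and 11 without empty vector 2). Those lower numbered 13 to 21 with an array left out (13, 21, 19 and 17 in the same order), where a lone array overlaps less easily. They numbered 11 with normexp, 11 with median scaling and 7 with quantile normalization, 8 in the value table and 6 by the mean of a gene's probes. Members higher stayed at 1 with normexp and with median scaling. The share of all genes without overlap was not counted under these alternatives. Their counts of members therefore cannot be set against all genes.

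With the replicate block, 22 probes and 0 members changed. A crossed replicate block, chosen after the negative correlation of same-numbered arrays was seen, gave 15 probes and 0 members. A limma unadjusted p under 0.05 was found for 778 probes with the replicate block and 1888 with the crossed block, against 646 without a block.

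The sign of the log2 difference held under all 13 alternatives for 11 members (Ccng2, Cdk2, Cdkn1a, Cdkn2b, E2f4, E2f7, Perp, Pmaip1, Tigar, Trp53inp1 and Zmat3) and turned under at least 1 for 29. It turned with normexp for Cdkn1b (-0.0050), Rbl1 (-0.0084), Btg2 (-0.00068) and Plk2 (-0.046). It turned with median scaling for Trp53 (-0.027), Cdkn1b (-0.091), Cdkn2a (-0.030), Rbl1 (-0.016), E2f3 (-0.032), Ccnd1 (-0.022), Aen (-0.00027) and Plk2 (-0.061). It turned in the value table for Trp53 (-0.016), Mdm4 (-0.0063), Cdkn1b (-0.17), Cdkn2a (-0.028), Rbl1 (-0.15), E2f3 (-0.021), E2f8 (0.17), Ccnd1 (-0.015), Ccnd3 (0.18), Gadd45a (0.24), Aen (-0.044) and Plk2 (-0.051). It turned by the mean of a gene's probes for Rbl1 (-0.065), E2f8 (0.25), Ccnd3 (0.26) and Gadd45a (0.32). With an array left out, 28 members had values on both sides of 0, the lowest and highest being -0.15 and 0.33 for Aen, -0.12 and 0.43 for Bax, -0.32 and 0.043 for Bbc3, -0.068 and 0.31 for Btg2, -0.25 and 0.39 for Ccnd1, -0.45 and 0.16 for Ccnd3, -0.28 and 0.46 for Ccng1, -0.053 and 0.32 for Cdk4, -0.30 and 0.042 for Cdk6, -0.41 and 0.41 for Cdkn1b, -0.17 and 0.30 for Cdkn2a, -0.21 and 0.41 for Cdkn2c, -0.53 and 0.25 for Cdkn2d and -0.068 and 0.51 for E2f1. They were -0.090 and 0.33 for E2f2, -0.25 and 0.37 for E2f3, -0.33 and 0.083 for Gadd45a, -0.63 and 0.15 for Gadd45b, -1.07 and 0.24 for Gadd45g, -0.63 and 0.050 for Mdm2, -0.064 and 0.32 for Mdm4, -0.37 and 0.026 for Phlda3, -0.085 and 0.15 for Plk2, -0.72 and 0.060 for Rb1, -0.23 and 0.38 for Rbl1, -0.20 and 0.16 for Rbl2, -0.20 and 0.14 for Sesn1 and -0.95 and 1.08 for Trp53. The cause of these turns was not tested. In the value table, Cdkn1a had -1.65 and 1.92 in Hdac6 vector cells and 2.28 and -1.42 in empty vector cells. By its brightest probe the arrays lay between 1.83 and 2.27. The sign that Cdkn1a kept in the value table is therefore no check of that probe. Cdkn1b was also low on Hdac6 vector 1 and empty vector 2 in the value table. The source of this split was not tested. Of the 5 member probes not tested, none was well above background on both arrays of a group.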
